A study of Homo sapiens with 2 samples.

Results

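Metallothioneins, the zinc transporter families SLC30 and SLC39, the metal-sensing transcription factor gene MTF1 and the copper transport genes were examined in HaCaT, an immortal keratinocyte line that arose without a transforming virus from human skin. The genes were chosen by name: every probe naming 1 gene whose symbol begins with MT1 or MT2 and a letter, or with SLC30A or SLC39A, and the probes for MTF1, SLC31A1, SLC31A2, ATP7A, ATP7B and ATOX1. MT3 also falls under the rule, but no probe in the data used names it alone, and it is not analysed here. This gave 33 of 18453 genes and 38 of 30968 probes. Exposed cells were kept in 0.5 µg/ml arsenic trioxide until passage 22, and passage control cells, called control cells below, reached passage 22 in its absence. Both grew in the same medium with serum and antibiotics, and Cy5-labelled amplified RNA was read on 1-colour arrays. Each group had 4 RNA preparations of 3 arrays per the design text, which names them technical replicates. Arrays of a group come combined into a single intensity with its error, which hides the spread between them. With 1 culture line per group, an effect of exposure and a chance divergence of the lines cannot be told apart. In bulk RNA, fewer cells that make a transcript and less of it per cell cannot be told apart.

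Metallothioneins are small cysteine-rich proteins that bind zinc, copper and other thiol-seeking metals, and their genes are classical targets of MTF1, which binds metal response elements in their promoters when cellular zinc rises. Proteins of the SLC39 (ZIP) family move zinc into the cytosol from outside the cell or from organelles, and proteins of the SLC30 (ZnT) family move it out of the cytosol. SLC31A1 brings copper into the cell, ATOX1 carries it to the pumps ATP7A and ATP7B, and metallothioneins buffer it. Trivalent arsenic binds thiols and is known to induce metallothionein genes in acute exposure.

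To show the sequence feature for which metallothionein promoters are known, promoter windows from RefSeq (build GRCh38.p14, 250 bases before to 50 bases after the start) were searched for the core of the metal response element, spelled TGCACNC or TGCGCNC, on both strands. The table held windows for 27 of the 33 genes, and MT1E is not among them. The windows of 4 genes detected in both groups are printed 5′ to 3′ with matches to either spelling in capitals. They were taken to span the largest count of matches among the 27 genes with a window, that of MT2A, and none, that of SLC39A11, the gene with the lowest ratio below.
MT2A, chr16:56608334-56608633, plus strand: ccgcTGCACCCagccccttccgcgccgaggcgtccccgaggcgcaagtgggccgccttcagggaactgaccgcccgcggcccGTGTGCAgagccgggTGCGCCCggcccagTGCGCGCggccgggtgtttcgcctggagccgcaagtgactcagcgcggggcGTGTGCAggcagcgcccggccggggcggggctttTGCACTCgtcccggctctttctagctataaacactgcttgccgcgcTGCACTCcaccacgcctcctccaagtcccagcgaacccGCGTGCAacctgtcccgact
ATOX1, chr5:151758582-151758881, minus strand: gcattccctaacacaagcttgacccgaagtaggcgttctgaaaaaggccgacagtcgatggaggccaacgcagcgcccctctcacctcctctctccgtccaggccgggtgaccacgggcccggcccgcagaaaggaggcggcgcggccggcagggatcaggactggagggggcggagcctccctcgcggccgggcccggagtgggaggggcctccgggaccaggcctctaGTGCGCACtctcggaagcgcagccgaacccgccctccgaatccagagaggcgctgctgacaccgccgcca
SLC39A6, chr18:36129291-36129590, minus strand: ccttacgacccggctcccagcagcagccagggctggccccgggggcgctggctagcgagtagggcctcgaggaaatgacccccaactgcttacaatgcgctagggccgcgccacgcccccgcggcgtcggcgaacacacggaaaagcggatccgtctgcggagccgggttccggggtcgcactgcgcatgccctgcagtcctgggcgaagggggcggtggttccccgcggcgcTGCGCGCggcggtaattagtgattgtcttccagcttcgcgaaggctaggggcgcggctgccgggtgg
SLC39A11, chr17:73092639-73092938, minus strand: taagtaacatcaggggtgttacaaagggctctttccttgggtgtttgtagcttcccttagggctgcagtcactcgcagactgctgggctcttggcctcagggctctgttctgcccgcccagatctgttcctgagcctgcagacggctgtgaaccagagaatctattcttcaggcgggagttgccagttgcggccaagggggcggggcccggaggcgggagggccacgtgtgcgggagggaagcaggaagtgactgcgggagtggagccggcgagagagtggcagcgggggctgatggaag
The MT2A window held 8 matches, 5 on the printed strand and 3 on the other, with no overlap between them. Only 7 of the 35116 windows of this length in the table, or 0.0199%, held 8 or more. ATOX1 held 2 matches that overlap each other on opposite strands, SLC39A6 held 1 and SLC39A11 held none. At least 1 match stood in 17 of the 38 windows of the 27 genes (44.7%), against 29.6% of all windows. SLC30A1, a known MTF1 target that exports zinc, held 2. A match describes the letters of a window and is no evidence of binding.

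Of the 33 genes, 10 were detected in exposed cells, against 9 in control cells, where detected means a deposited detection p-value below 0.05. The detected genes were MT1E, MT2A, SLC39A1, SLC39A3, SLC39A4, SLC39A6, SLC39A7, SLC39A11 and ATOX1 in both groups, and SLC39A10 in exposed cells alone. No gene of the exporter family SLC30 was detected in either group, and neither was MTF1. The lowest intensity of any detected probe on the arrays was 54.4 in exposed against 81.7 in control cells. The 23 genes detected in neither group had 26 probes, with intensities from -2.04 to 57.2 in exposed cells and from -2.72 to 75.7 in control cells, and 18 of these probes had a detection p-value above 0.9 in both groups. A gene that was not detected may still be transcribed below what its probe can report.

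**Figure D1:**
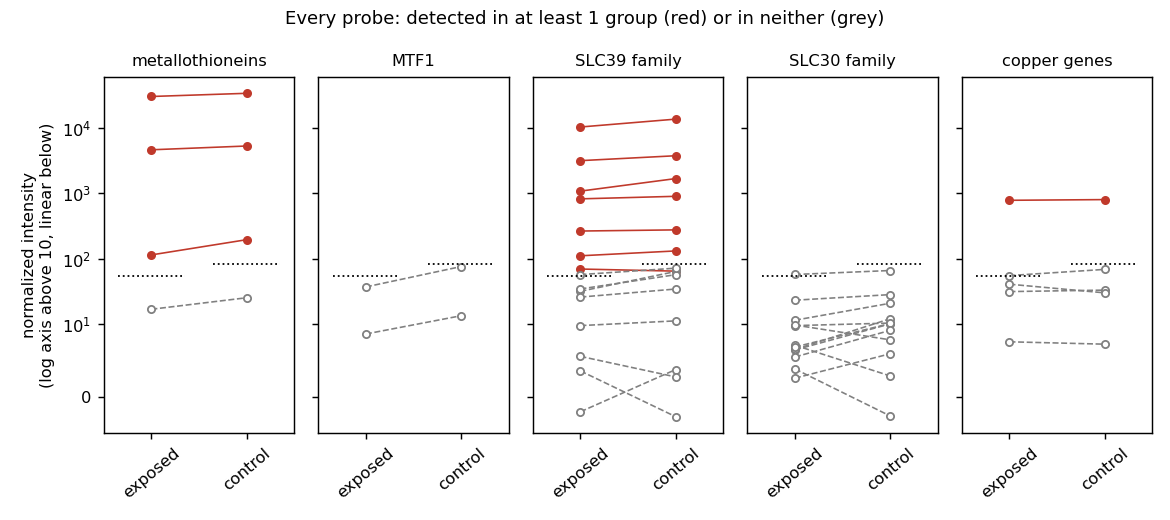
Normalized intensity of every probe for the 33 genes in exposed (left) and control cells (right of each panel), on an axis that is logarithmic above 10 and linear below; dotted lines mark the lowest intensity of any detected probe in each group, 54.4 in exposed against 81.7 in control cells. Probes detected in at least 1 group are red and the others grey. The SLC30 panel holds grey points alone, and the SLC39 panel holds detected probes from 69.3 to 10198 in exposed cells.

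Exposed cells had lower intensities over the arrays as a whole: over the 9915 probes detected in both groups, the log2 ratio of exposed to passage control had its median at -0.43. Sizes below are log2 ratios of the deposited intensities with this median subtracted, and each ± is an error propagated from both deposited errors, not an SD. Where no such centring is applied the text says so. Calls used the p-values of the authors' deposited table after Benjamini-Hochberg adjustment across 7737 genes, with a limit of 0.05. The test behind those p-values is not stated.

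None of the 10 detected genes was called changed in either direction by the adjusted deposited p-values, against 5.66% of all genes (3.13% higher and 2.53% lower in exposed cells). At an unadjusted deposited p-value below 0.05 the count was 2, MT1E and SLC39A6, both higher, where 7.12% of all genes were higher and 6.38% lower. The 9 genes detected in both groups lay between -0.21 and 0.39, with a median log2 ratio of 0.24 against 0.0039 over all 7244 genes detected in both groups. Above 0 lay 8 of the 9, against 50.9% of all genes, and none passed 1.5-fold in either direction, against 6.67% of all genes. Of the 8, SLC39A1 and SLC39A4 lay within their errors of 0, and SLC39A1 is below 0 in the authors' deposited table. By the centred ratio, the share of all genes above 0 rose with mean intensity, from 47.1% below 200 to 63.9% at 10000 or more. In the authors' deposited table the median log2 ratios of these 2 ranges were -0.0077 and -0.0030. The median in the authors' deposited table was 0.17 for the 9 genes and -0.0034 for all genes. Without centring all 9 lay below 0, with a median of -0.19, so their deposited intensities were lower in exposed cells, by less than that of the median probe for all but SLC39A11.

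**Figure D2:**
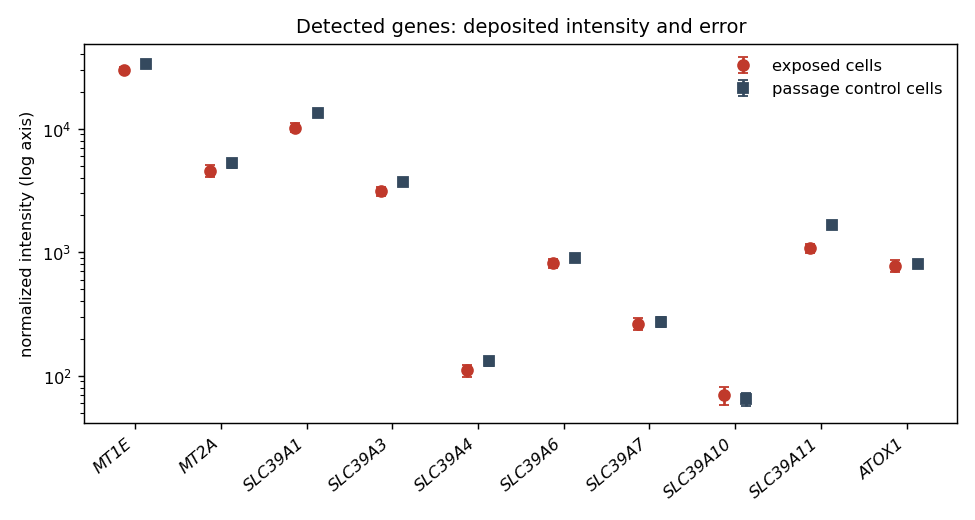
Normalized intensity (log axis) of the 10 genes detected in at least 1 group, with the deposited error as a bar, for exposed (circles, left of each pair) and control cells (squares). Every gene except SLC39A10 has its exposed point below its control point, and the gap is widest for SLC39A11, at 1072 in exposed against 1665 in control cells.

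The metallothioneins were represented by MT1E, MT2A and MT1A, neighbours in a cluster of near-identical genes on chromosome 16, so signal from one gene on another's probe cannot be separated here. MT1B, MT1F, MT1G, MT1H, MT1M and MT1X of the same cluster had no probe naming them alone. MT1E read 29802 (error 1545) in exposed cells, against 33330 (error 1848) in control cells. As deposited, those ranges did not overlap and exposed cells were lower. Of the 9 genes 4 stood apart in this way, MT1E, SLC39A1, SLC39A3 and SLC39A11, all lower, against 69.6% of all genes that were lower and 2.03% that were higher. With exposed intensities scaled up by the median, 5 stood apart as higher (MT1E, SLC39A3, SLC39A6, SLC39A7 and ATOX1, against 16.3% of all genes) and 1 as lower (SLC39A11, against 12.4%). Relative to the median probe MT1E was 1.20-fold higher, 0.27 ± 0.11 as a log2 ratio and 0.17 in the authors' deposited table. Its deposited p-value was 0.0137 and, adjusted over all genes, 0.165, so it was not called. MT1E and SLC39A1 stood among 219 genes with a mean intensity of 10000 or more. The median log2 ratio of those 219 genes was 0.095, or -0.0030 in the authors' deposited table, and 63.9% of the centred ratios lay above 0. Whether compression at the bright end had a part in the MT1E value was not tested.

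The second MT1E probe gave the opposite sign. It read 114 (error 19.7) in exposed cells, against 195 (error 21.3) in control cells, which is -0.34 ± 0.30 as a log2 ratio. The authors' deposited table has -0.23 for it, with a p-value of 0.534. The mean of both probes was -0.037. Which of the probes follows MT1E alone cannot be told from the values.

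MT2A, the most widely expressed human metallothionein and the gene whose promoter is printed above, read 4579 (error 483) in exposed cells, against 5231 (error 423) in control cells. The ranges overlapped as deposited. Its log2 ratio was 0.24 ± 0.19, or 0.16 in the authors' deposited table, with a deposited p-value of 0.298 and an adjusted one of 0.924. MT1A was detected in neither group, at 16.9 in exposed against 25.3 in control cells. MTF1 itself had 2 probes, which read 37.0 and 8.65 in exposed cells, against 75.7 and 13.4 in control cells, all without detection. For the brighter MTF1 probe the authors' deposited table gives -0.22 (log2 ratio) with a p-value of 0.462.

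**Figure D3:**
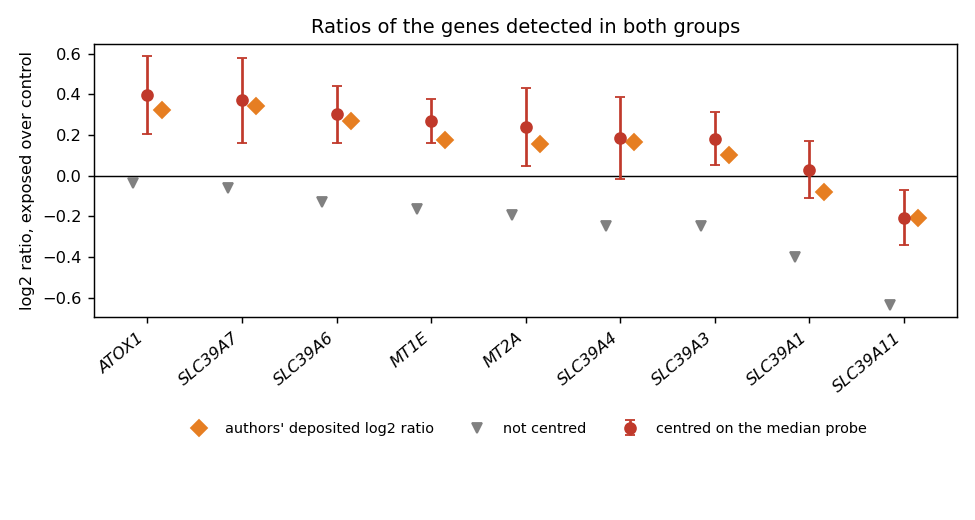
Log2 ratio of exposed over control cells for the 9 genes detected in both groups: circles are centred on the median probe, with the propagated error as a bar, diamonds are the authors' deposited log2 ratios and triangles are the ratios before centring. Centred circles lie between -0.21 for SLC39A11 and 0.39 for ATOX1, and all triangles lie below 0.

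Of 14 genes of the importer family SLC39, 7 were detected in exposed cells and 6 of them in both groups, with a median log2 ratio of 0.18. Of the 6, 5 lay above 0. SLC39A6, a plasma membrane zinc importer first described as an oestrogen-induced gene, had the smallest deposited p-value of the 7. It read 816 (error 67.4) in exposed cells, against 893 (error 45.8) in control cells, and the deposited ranges overlapped. Relative to the median probe it was 1.23-fold higher (0.30 ± 0.14, or 0.27 in the authors' deposited table), with a deposited p-value of 0.0186 and an adjusted one of 0.201.

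SLC39A7 releases zinc from the endoplasmic reticulum into the cytosol. It read 264 (error 28.1) in exposed cells, against 274 (error 27.0) in control cells, with ranges that overlapped almost wholly. The centred log2 ratio was 0.37 ± 0.21, or 0.34 in the authors' deposited table, and the deposited p-value was 0.210.

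SLC39A11, a ZIP protein placed inside cells rather than at the plasma membrane, was the gene with a centred ratio below 0. It read 1072 (error 93.9) in exposed cells, against 1665 (error 53.0) in control cells. These ranges stood apart as deposited and also after exposed intensities were scaled by the median. The log2 ratio was -0.21 ± 0.13, the same to 2 decimals in the authors' deposited table, and the deposited p-value of 0.196 did not pass even before adjustment.

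SLC39A1, a plasma membrane importer expressed in most cells, read 10198 (error 879) in exposed cells, against 13451 (error 561) in control cells. Its centred log2 ratio, 0.03 ± 0.14, was smaller than its error, and the value is -0.079 in the authors' deposited table. SLC39A3, a related importer, read 3126 (error 251) in exposed cells, against 3715 (error 152) in control cells (0.18 ± 0.13). A second SLC39A3 probe was not detected, at 34.4 in exposed against 56.8 in control cells. SLC39A4, the intestinal zinc importer mutated in acrodermatitis enteropathica, read 110 (error 12.2) in exposed cells, against 131 (error 11.1) in control cells (0.18 ± 0.20). None of the 3 passed, with deposited p-values of 0.439, 0.454 and 0.525 for SLC39A1, SLC39A3 and SLC39A4.

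SLC39A10, which forms a complex with SLC39A6, was detected in exposed cells alone. It read 69.3 (error 11.4) in exposed cells (detection p-value 0.0127) and 64.4 (error 7.59) in control cells (detection p-value 0.325). No ratio was computed, since that needed detection in both groups. As deposited, the values overlapped within their errors. Without scaling, 69.3 lies above the lowest detected intensity of exposed cells, 54.4, and under that of control cells, 81.7. The authors' deposited table gives SLC39A10 0.39 (log2 ratio) with a p-value of 0.549. Of the 7 SLC39 genes without detection, SLC39A2, an importer linked to keratinocyte differentiation, read 31.7 (error 5.83) in exposed cells, against 63.6 (error 10.1) in control cells. The authors' deposited table gives SLC39A2 -0.50 (log2 ratio) with a p-value of 0.00536. Adjusted over every probe with a deposited p-value the SLC39A2 value was 0.0933. SLC39A8, a carrier of zinc, manganese and cadmium, read 3.57 in exposed cells, against -2.72 in control cells. SLC39A9 read 57.0 in exposed cells, against 71.4 in control cells, with detection p-values of 0.0618 in exposed and 0.196 in control cells.

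The exporter family SLC30 had 10 genes with 12 probes, and their intensities ran from 2.58 to 57.2 in exposed cells and from -2.62 to 65.8 in control cells. SLC30A1, the plasma membrane zinc exporter and a known MTF1 target, read 6.46 (error 2.85) in exposed cells, against 10.1 (error 3.46) in control cells. SLC30A7, which loads zinc into the Golgi apparatus, had the brightest SLC30 probe, at 57.2 in exposed against 65.8 in control cells. For it the authors' deposited table has -0.11 (log2 ratio) with a p-value of 0.334. No change in zinc export transcripts was detectable with these probes.

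Among the 5 copper genes ATOX1 was detected, and the copper importers and pumps were not. ATOX1, the cytosolic copper chaperone, read 776 (error 89.7) in exposed cells, against 795 (error 52.0) in control cells. The deposited intensities thus overlapped almost wholly, and relative to the median probe ATOX1 had the highest ratio of the 9 genes, 0.39 ± 0.19 or 1.31-fold higher. The authors' deposited table gives it 0.32 with a p-value of 0.142, which was 0.668 adjusted over all genes. SLC31A1, the high-affinity copper importer, read 31.4 in exposed against 33.0 in control cells, and SLC31A2 read 40.7 in exposed against 30.01 in control cells. ATP7A read 7.57 in exposed against 7.25 in control cells. ATP7B was nearest to detection, at 55.1 in exposed cells with a detection p-value of 0.0524 and 68.5 in control cells with one of 0.214. In the authors' deposited table the log2 ratio is 0.57 for SLC31A1 with a p-value of 0.366 and 0.22 for ATP7B with a p-value of 0.324.

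**Figure D4:**
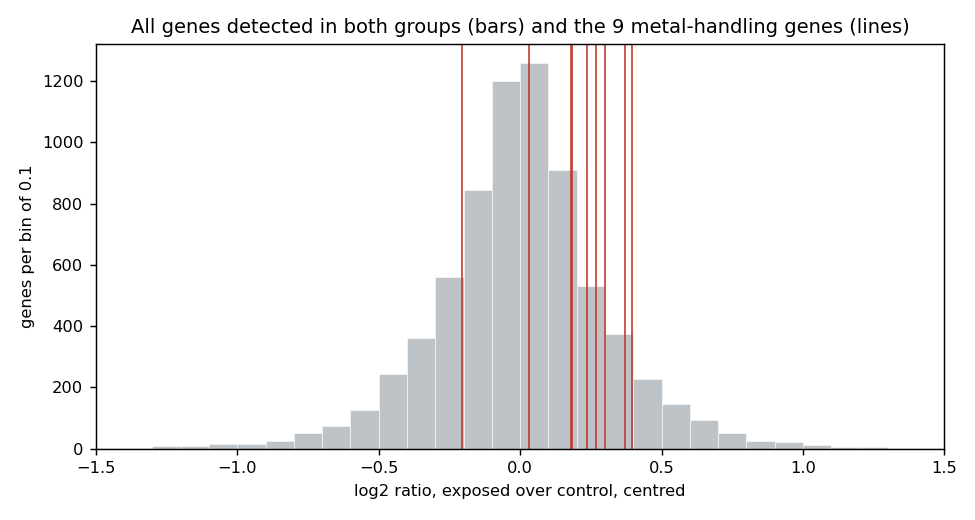
Centred log2 ratios of the genes detected in both groups as bars (genes per bin of 0.1, with the axis drawn from -1.5 to 1.5), and the 9 metallothionein, zinc and copper transport genes as lines. All 9 lines lie between -0.21 and 0.39, inside the range from -0.49 to 0.51 that holds the middle of the distribution between its percentiles 5 and 95.

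Measured against their own errors, 3 of the 9 genes had a centred log2 ratio above 2 propagated errors, namely MT1E (2.45 errors), SLC39A6 (2.14) and ATOX1 (2.06), where 10.1% of all genes did, and none lay as far below 0, where 6.58% did. ATOX1 stands just past that line and has a deposited p-value of 0.142. The 9 genes had propagated errors from 0.11 to 0.21, with a median of 0.14 against 0.20 over all genes.

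Other genes of metal handling were taken from 5 lists, whose counts stand against 5.66% of all genes called (3.13% higher, 2.53% lower) and 13.5% below 0.05 before adjustment. Among copper chaperones and copper enzymes none of 8 measured genes was called, the count at an unadjusted p-value below 0.05 was 0, and the median log2 ratio was 0.05. The lowest deposited p-values were those of STEAP2 and STEAP3, metalloreductases (-0.33 ± 0.27 and -0.20 ± 0.24), and SOD1, the copper-zinc superoxide dismutase (0.18 ± 0.18). Of 4 metal-inducible stress genes detected in at least 1 group, 3 had a deposited p-value, and none of the 3 was called or lay below 0.05 before adjustment, with HSPA1B, a heat shock protein 70 gene, at 0.20 ± 0.13 and the co-chaperone gene BAG3 at 0.17 ± 0.10. HMOX1, the heme oxygenase 1 gene, was without a deposited p-value and was detected in exposed cells alone, at 107 (error 13.998) in exposed cells, against 17.8 (error 2.65) in control cells. GCLM of glutathione synthesis was also detected in exposed cells alone, at 74.8 (error 8.41) in exposed against 52.1 (error 5.09) in control cells. Without scaling, the exposed value of GCLM lies above the lowest detected intensity of exposed cells, 54.4, and under that of control cells, 81.7. Its deposited p-value was 0.532. None of 7 other divalent metal and magnesium carriers was called, again with a count of 0 before adjustment, and their median was 0.11. TRPM7, a channel kinase that passes magnesium and zinc, stood at 0.14 ± 0.10, CNNM3 at 0.29 ± 0.22 and the magnesium transporter gene SLC41A1 at 0.26 ± 0.22.

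Of genes beside the metallothionein cluster none of 5 was called, against 5.66% of all genes, and 2 had an unadjusted deposited p-value below 0.05, against 13.5% of all genes. NUDT21, a pre-mRNA cleavage factor gene, read 318 in exposed against 291 in control cells (0.56 ± 0.18, adjusted p-value 0.323). BBS2, a BBSome subunit gene, read 1808 in exposed against 2724 in control cells (-0.16 ± 0.15, adjusted p-value 0.346). NUP93, a nuclear pore gene, stood at 0.30 ± 0.12. The median of the 5 was 0.16.

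The list of zinc-sensing and zinc-binding genes held the called genes of the 5 lists, 1 higher and 1 lower of 5 measured, against 3.13% of all genes higher and 2.53% lower. CA2, a zinc-dependent carbonic anhydrase, read 6358 (error 567) in exposed cells, against 13337 (error 982) in control cells. Relative to the median probe it was 1.56-fold lower (-0.64 ± 0.17, or -0.67 in the authors' deposited table, adjusted p-value 7.95e-05). CA9, another carbonic anhydrase, was called higher (adjusted p-value 9.32e-11). Control cells gave no detection of CA9, at 61.2 (error 9.95) in exposed against 43.1 (error 5.75) in control cells. Without scaling, the exposed value of CA9 lies above the lowest detected intensity of exposed cells, 54.4, and under that of control cells, 81.7. No centred ratio was computed for CA9, since that needed detection in both groups. The authors' deposited table puts its log2 ratio at 0.87. Of the 11 listed genes 5 were measured, and the 4 detected in both groups had a median of -0.69. CA2, S100A9 and S100A8 of these 4 lay below 0 and 1 gene lay above 0. The rest of the list is not covered by that median. S100A9, a subunit of the zinc-binding alarmin calprotectin, stood at -0.74 ± 0.27 with an adjusted p-value of 0.350. S100A8, the other calprotectin subunit, named after its value was seen, had the lowest ratio of the list and was not called. It read 175 (error 43.1) in exposed cells, against 857 (error 182) in control cells (-1.86 ± 0.47, or -0.97 in the authors' deposited table, adjusted p-value 0.423).

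**Figure D5:**
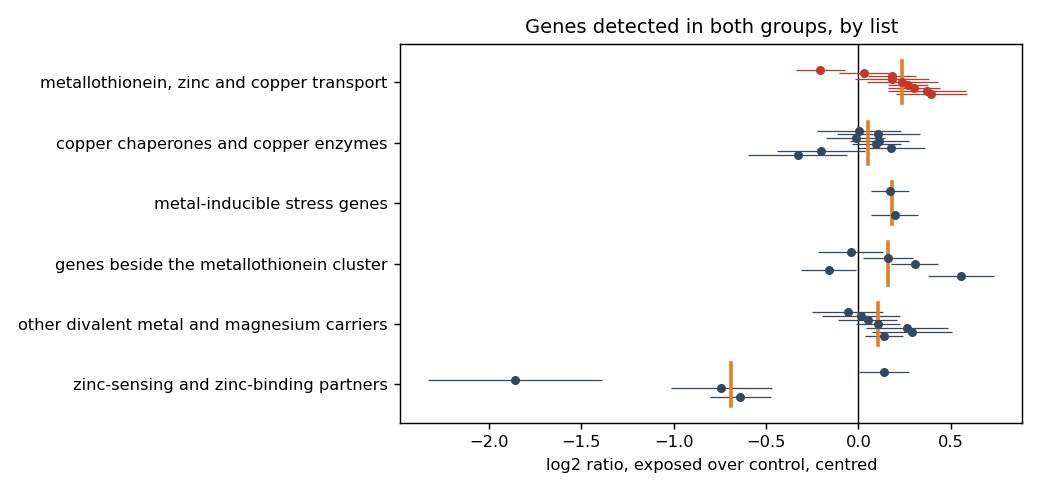
Centred log2 ratio with its propagated error for each gene detected in both groups, by list, with the median of each list as a vertical bar. The metallothionein, zinc and copper transport genes have a median of 0.24. The zinc-sensing and zinc-binding list reaches furthest below 0, with a median of -0.69 over 4 of its 11 genes, among them CA2, S100A8 and S100A9.

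The keratinocyte label was checked against 7 keratinocyte markers with a probe, all detected in at least 1 group. Without centring their summed intensity was 50555 in exposed against 66366 in control cells, and their median centred log2 ratio was -0.056. None of these 7 was called. Of the markers of other cell types, 1 of 3 for melanocytes, 3 of 6 for fibroblasts and 1 of 5 for leukocytes were detected. Their summed intensities, also without centring, were 233, 413 and 351 in exposed cells for melanocyte, fibroblast and leukocyte markers. In control cells the sums were 317, 684 and 337 in the same order, and none of these markers was called. Their part in the results above was not tested.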

How the data were processed

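Per the labels' protocols, amplified RNA carrying amino-allyl UTP was conjugated to Cy5. How the arrays were scanned and normalized is not given in the sources used here. For every probe the authors deposited, in each group, a linear normalized intensity and its error, with 822 probes in exposed and 1165 in passage control cells below 0. The authors' deposited table also holds a detection p-value per group and, for 14401 probes, a log2 ratio (at most 6.64 either way) and a p-value by an unstated test. That log2 ratio differs from the one the deposited intensities give, by a median of 0.42 upwards. A second deposited copy of the intensities was identical to within 5.00e-07.

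The limma fit that values per array would have allowed was not run, since the deposited columns are combined per group. The brightest probe by mean intensity stood for its gene, 7747 genes were detected in at least 1 group, and deposited p-values of 7737 were adjusted by the Benjamini-Hochberg method with a limit of 0.05. Log2 ratios were centred on their median over probes detected in both groups. Where a symbol stood several times for 1 probe it was counted as 1 symbol, as for SLC39A7. Symbols were checked through gene identifiers against RefSeq (GRCh38.p14), and all 38 probes matched. The centring and the adjustment were run on simulated data whose p-values were made from the centred ratio and its error. That run does not test the deposited p-values. Python 3.11.15 was used. The number of arrays limits the precision, and the deposited p-values can reflect no more than variation among preparations from 1 line per group.

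The genes and lists were chosen with earlier results of these data known. Named were every detected gene, the others by range with examples picked for their role or values, and up to 3 genes per list with the smallest deposited p-values. SLC39A2, SLC39A8, SLC39A9, SLC30A1, SLC30A7, the undetected copper genes, MT1A, MTF1, HMOX1 and S100A8 are named outside that rule, after their values were seen. Alternatives were no centring, quantile normalization, the deposited log2 ratio, an offset of 32, averaging a gene's probes, a filter on dim genes and stricter limits.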

Additional observations from a re-analysis of the deposited data

Results flagged for a closer look

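Signal appeared in a probe outside the gene-level comparison, because it names both MT1A and MT1X. It read 910 (error 113) in exposed cells and 1175 (error 113) in passage control cells, and was detected in both groups. Its centred log2 ratio was 0.061 ± 0.23, and the authors' deposited table gives 0.035 with a p-value of 0.887. It was the only one detected of 5 probes that name several metallothionein genes.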

How the results depend on the processing

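No gene of the set was called under any alternative that used the deposited p-values, including adjustment over all measured probes, over every probe with a deposited p-value (chosen after the data were examined), a limit of 0.01 and a filter on dim genes. Taking a centred log2 ratio above 2 propagated errors as the call gave 3 genes in place of 0, all higher. By that rule 10.1% of all genes were higher and 6.58% lower. The median log2 ratio of 0.24 became -0.19 without centring, as the common shift was left in. Without centring the values were -0.035 for ATOX1, -0.16 for MT1E, -0.19 for MT2A, -0.40 for SLC39A1, -0.25 for SLC39A3, -0.25 for SLC39A4, -0.13 for SLC39A6, -0.058 for SLC39A7 and -0.64 for SLC39A11. SLC39A1 also changed sign with quantile normalization (-0.014), the offset of 32 (-0.022) and the deposited log2 ratio (-0.079), and MT1E with the mean of its probes (-0.037). For SLC39A1 the cause was not tested, and for MT1E the second probe sets the sign. Apart from SLC39A11 without centring, in the other 48 comparisons of a gene with an alternative the direction was kept and the value moved by less than its error. The lowest adjusted p-value of any gene was 0.105 among the alternatives set over genes, and 0.0933, that of SLC39A2, over every probe with a deposited p-value. The count of detected genes in exposed cells was 9 with a detection limit of 0.01, in place of 10. No paired analysis was possible because each group has 1 combined column, and leaving out a replicate was not possible for the same reason. The signal over background limits the SLC30 family and MTF1, whose probes were not detected.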
